A study of Mus musculus with 16 samples.

Results

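The regions described here are stretches of mouse chromatin where both histone acetylation marks of the study were lowest in the WT-ERG line. They were chosen from the deposited H3K27ac regions whose largest normalized read value over the 3 lines was 50 or more. In each, WT-ERG over P199L-ERG and WT-ERG over empty vector, after adding 2 normalized reads to every value, were both 0.667 or less. Each also had to overlap an H3K9ac region in which WT-ERG had fewer normalized reads than both other lines. The rule found 902 members among the 114597 H3K27ac regions of the series. Of those, 33274 reached 50 normalized reads and overlapped an H3K9ac region, and these eligible regions serve as the background. Since H3K27ac and H3K9ac chose the members, their values are given as a description and were not tested.

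The study expressed human ERG variants stably in ER-Hoxb8 cells of the mouse strain C57BL/6, a myeloid progenitor line kept immature by an estrogen-regulated Hoxb8. The first line carried WT-ERG. In the second line, P199L-ERG, a proline of ERG was replaced by leucine, and the third line carried the empty vector. All lines share the Hoxb8 construct and the mouse's own Erg gene, and the labels do not say whether a line came from 1 clone. ChIP-seq for H3K27ac, H3K9ac, H3K4me1, H3K4me3 and H3K27me3 gave 1 library per line and mark, so no difference between lines has a replicate check and no p-value is given.

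The transcription factor ERG belongs to the ETS family, is active in blood stem cells and can recruit co-repressors, among them the NCoR complex with the histone deacetylase HDAC3. Acetylation of histone H3 at lysines 27 and 9 marks active promoters and enhancers, and histone deacetylases remove it. H3K4me1 is found mostly at enhancers and H3K4me3 mostly at promoters, while H3K27me3 is a mark of Polycomb repression.

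The sequences at the centre of 4 members are shown first because these regions recur below: a pair upstream of Fcnb, 1 in Igll1, and the member at Clec4a2 that ranked lowest by the larger of its 2 H3K27ac ratios. Each run is the 300 bases around the region's centre, on the plus strand of GRCm38 (mm10), read from RefSeq, and overlaps no annotated exon. Capitals mark the ETS core letters CGGAAG or AGGAAG on either strand.
Fcnb promoter side, chr2:28085126-28085425: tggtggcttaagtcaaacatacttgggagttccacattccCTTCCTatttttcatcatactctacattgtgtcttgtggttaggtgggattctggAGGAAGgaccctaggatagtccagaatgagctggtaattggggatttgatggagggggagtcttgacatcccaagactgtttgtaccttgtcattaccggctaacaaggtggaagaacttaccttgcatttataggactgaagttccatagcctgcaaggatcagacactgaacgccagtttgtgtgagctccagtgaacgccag
Fcnb upstream, chr2:28093799-28094098: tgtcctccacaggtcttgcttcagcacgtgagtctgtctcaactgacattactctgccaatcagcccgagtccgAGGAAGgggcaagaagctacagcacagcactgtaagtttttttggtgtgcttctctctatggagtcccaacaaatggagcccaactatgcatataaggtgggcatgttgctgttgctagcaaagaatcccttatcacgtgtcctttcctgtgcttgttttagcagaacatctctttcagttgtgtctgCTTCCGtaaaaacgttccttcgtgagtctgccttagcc
Igll1, chr16:16861774-16862073: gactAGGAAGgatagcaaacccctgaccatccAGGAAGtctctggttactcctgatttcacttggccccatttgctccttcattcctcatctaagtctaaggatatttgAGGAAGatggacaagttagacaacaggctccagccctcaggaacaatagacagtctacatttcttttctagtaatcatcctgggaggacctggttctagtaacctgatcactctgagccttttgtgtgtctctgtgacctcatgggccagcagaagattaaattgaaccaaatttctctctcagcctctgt
Clec4a2, chr6:123123700-123123999: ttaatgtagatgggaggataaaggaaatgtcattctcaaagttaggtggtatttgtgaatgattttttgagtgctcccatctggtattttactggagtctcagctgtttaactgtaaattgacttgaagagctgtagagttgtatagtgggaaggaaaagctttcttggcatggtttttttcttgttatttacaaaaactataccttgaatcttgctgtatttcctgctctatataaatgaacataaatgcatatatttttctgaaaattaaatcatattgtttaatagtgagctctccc
The Fcnb promoter window held 2 ETS core matches, the Fcnb upstream window 2 and the Igll1 window 3. The Clec4a2 window held 0, and its GC content was 32.7%. Windows read in the same way but not printed also held 0. They were those of the Fcnb member 11650 bp upstream, another member at Clec4a2, and members at Ly6c2, Chst13, Chil3 and Myb.

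Of the ETS core letters, CGGAAG was rarer in the members than in eligible regions, and AGGAAG had nearly the same share in both. CGGAAG occurred in the central 300 bases of 52 of the 902 members (5.76%), against 11.9% of eligible regions. AGGAAG occurred in 347 members (38.5%), against 39.7%, and GAGGAAGT, a longer form of it that PU.1 prefers, in 3.66% and 3.39%. The C/EBP letters TTGCNNAA, searched on both strands like all the others, occurred in 16.4% of members and 11.1% of eligible regions, and the RUNX letters TGTGGT in 25.8% and 21.0%. The GC box GGGCGG occurred in 3.88% of members and 22.2% of eligible regions. Most of these gaps were smaller among regions with the GC content of the middle 50% of the members (43.4% to 47.8%). There CGGAAG stood in 4.67% of members and 5.28% of eligible regions, AGGAAG in 41.1% and 40.7%, GAGGAAGT in 4.67% and 3.53%, TTGCNNAA in 16.7% and 15.1%, TGTGGT in 26.2% and 25.7%, and GGGCGG in 3.11% and 4.74%. Among enhancer-like regions, defined below, AGGAAG stood in 33.9% of members and 41.9% of eligible regions. There TTGCNNAA stood in 18.6% and 11.7%, CGGAAG in 5.21% and 5.62%, and TGTGGT in 23.1% and 23.9%. The enhancer-like comparison was not matched for GC content. A match of letters is a description and not a binding site.

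By the steps of the rule, 1897 of the 33274 eligible regions (5.7%) had H3K27ac lowest in WT-ERG at the fold threshold, and 34.5% overlapped an H3K9ac region with WT-ERG lowest. Both conditions held at 902 regions (2.71%). The H3K9ac condition was thus met at 47.5% of the regions with H3K27ac lowest in WT-ERG. The mirror-image class, both marks highest in WT-ERG, had 594 regions. By the same rule both marks were lowest in P199L-ERG at 6262 regions and highest in it at 3984, and lowest in empty vector at 1134 and highest in it at 733. These counts depended on the GC adjustment described below. With it, both marks were lowest in P199L-ERG at 860 regions and highest at 1261, and in empty vector at 1691 and 752. For WT-ERG the adjusted counts were 297 lowest and 231 highest. H3K9ac followed H3K27ac at 62.3% of the regions with H3K27ac highest in WT-ERG. In the 4 classes of the other lines it did so at 55.5% to 88.4%. The 47.5% of the members' class was thus the smallest share of the 6. These shares have different backgrounds, however. For empty vector highest, the H3K9ac condition held at 52.8% of all eligible regions, and the share was 88.4%. For P199L-ERG highest it held at 34.9%, near the 34.5% of the members' class, and the share was 55.5%.

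Across the members, H3K27ac had a median of 45.3 normalized reads in WT-ERG, 116 in P199L-ERG and 83.9 in empty vector. The median log2 ratio was -1.27 for WT-ERG over P199L-ERG and -0.80 for WT-ERG over empty vector. On deposited values, P199L-ERG was the highest line at 717 members and empty vector at 185. This order depended on the GC adjustment described below. The median log2 ratio of P199L-ERG over empty vector at members was 0.42 as deposited and -0.19 after adjustment. At eligible regions it was -0.05 and 0.04. The counts that follow are also on deposited values. At 553 members P199L-ERG and empty vector lay within 1.5-fold of each other, at 332 P199L-ERG was over 1.5-fold above empty vector, and at 17 it was under it by as much. Ratios of 0.5 or less to both lines were reached at 167 members. The authors' calls had a peak in all 3 lines at 721 members, in P199L-ERG and empty vector at 144, and in P199L-ERG alone at 37. The same shares were not taken over eligible regions. Because the rule made WT-ERG the lowest line, these call counts only describe the members.

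H3K9ac differed less, and the rule asked only for a direction there. In the overlapping H3K9ac regions that met the rule, called partners here and summed where a member had several, the median was 35.2 normalized reads in WT-ERG, 45.6 in P199L-ERG and 49.0 in empty vector. The median log2 ratio was -0.31 over P199L-ERG and -0.38 over empty vector. The summed partners passed the fold threshold against both lines at 117 of the 902 members, and a single H3K9ac region passed it at 139. At 364 members WT-ERG came within 10% of another line. Partners stayed under 50 normalized reads in every line at 436 members, and 22.1% of members also overlapped an H3K9ac region that had not met the condition. Across the 902 members, which share libraries, the H3K27ac and H3K9ac ratios of WT-ERG over empty vector had a Spearman correlation of 0.23, and those over P199L-ERG of 0.06.

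**Figure D1:**
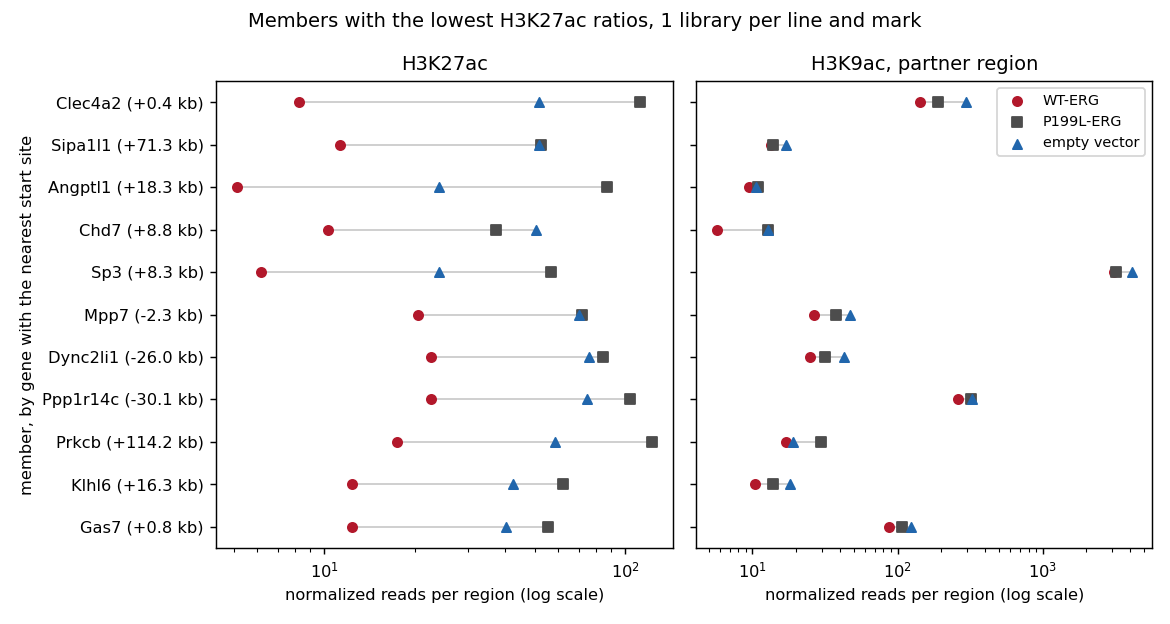
H3K27ac (left) and H3K9ac of the partner region (right) in normalized reads on a log axis, for 11 of the 12 members that ranked lowest by the larger of their 2 H3K27ac ratios, 1 point per library. WT-ERG is lowest in every row because the rule chose it so; at Clec4a2 it had 8.23 normalized reads of H3K27ac, against 112 in P199L-ERG and 51.7 in empty vector, while the H3K9ac points lie closer together.

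Ranked by the larger of the ratios to P199L-ERG and empty vector, with 2 normalized reads added, the lowest member was a 700-base region just inside Clec4a2 (chr6:123123499-123124199), a gene for a C-type lectin receptor of myeloid cells. H3K27ac there was 8.23 normalized reads in WT-ERG, 112 in P199L-ERG and 51.7 in empty vector. Without added reads the ratio of WT-ERG was 0.073 to P199L-ERG (95% interval 0.031 to 0.15) and 0.159 to empty vector (0.065 to 0.341). These intervals are exact binomial by the Clopper-Pearson method and cover counting error only. Against single lines other members were lower, among them the member at Angptl1 at 0.059 of P199L-ERG and a member in an intron of Heatr5b at 0.128 of empty vector. The H3K9ac partner of the Clec4a2 member had 144, 189 and 296 normalized reads in WT-ERG, P199L-ERG and empty vector. The overlapping H3K4me3 regions, a mark the rule did not use, had 94.4, 320 and 292 in the same order of lines, so WT-ERG was apart from both other lines there too. A neighbouring member 442 bp upstream of the Clec4a2 start site had 59.7 normalized reads of H3K27ac in WT-ERG, 248 in P199L-ERG and 115 in empty vector. It shares the H3K9ac partner of the first.

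Among the next in order were members in an intron of Sipa1l1, at Angptl1 and in introns of Chd7 and Sp3, and most of these had few reads. The Chd7 member, in a chromatin remodeller gene, had 10.3 normalized reads of H3K27ac in WT-ERG, 37.3 in P199L-ERG and 50.6 in empty vector. In the member at Sp3, a gene for a GC box binding factor, H3K27ac was 6.17 in WT-ERG, 56.5 in P199L-ERG and 24.1 in empty vector, but its H3K9ac partner was a promoter-sized signal of 3118, 3189 and 4112. There WT-ERG and P199L-ERG were nearly equal.

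Fcnb, which encodes ficolin B, a lectin of granulocyte granules, had 4 eligible regions, and all 4 were members. They spanned 13121 bases upstream of the gene and summed to 1661 normalized reads of H3K27ac in WT-ERG, 2744 in P199L-ERG and 3759 in empty vector. The member 5065 bp upstream was the largest of all members by empty vector, with 742 normalized reads in WT-ERG, 1185 in P199L-ERG and 1574 in empty vector. Its ratio of WT-ERG was 0.626 to P199L-ERG (0.57 to 0.687) and 0.471 to empty vector (0.43 to 0.516). The promoter member 391 bp upstream had 262 in WT-ERG, 414 in P199L-ERG and 642 in empty vector. The member 9063 bp upstream had 379 in WT-ERG, 716 in P199L-ERG and 819 in empty vector, and the member 11650 bp upstream 279, 429 and 724. In all 4, P199L-ERG stood between WT-ERG and empty vector. Past the start site, 2 further H3K27ac regions reached 50 normalized reads but overlapped no H3K9ac region, and there WT-ERG was above P199L-ERG, as with 24.7 in WT-ERG, 21.1 in P199L-ERG and 71.2 in empty vector.

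Of 6 H3K9ac regions at Fcnb that reached 50 normalized reads in a line, 5 followed the same order. The H3K9ac region over the start site had 158 normalized reads in WT-ERG, 198 in P199L-ERG and 307 in empty vector, and the most distal one 257, 322 and 535. The exception was the H3K9ac region of 2122 bases between these, with 229 in WT-ERG, 228 in P199L-ERG and 328 in empty vector. Of 7 smaller ones, WT-ERG was above P199L-ERG in 4 and below empty vector in all. The region of 2122 bases overlaps the largest H3K27ac member, which therefore met the rule only through a small H3K9ac region with 9.52, 11.9 and 23.4 normalized reads. H3K4me3 over the start site was 126 in WT-ERG, 211 in P199L-ERG and 404 in empty vector. The broad H3K4me1 region that spans all 4 members had 2010 in WT-ERG, 2739 in P199L-ERG and 4115 in empty vector. All 4 members also met the rule after the adjustment for GC content described below.

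**Figure D2:**
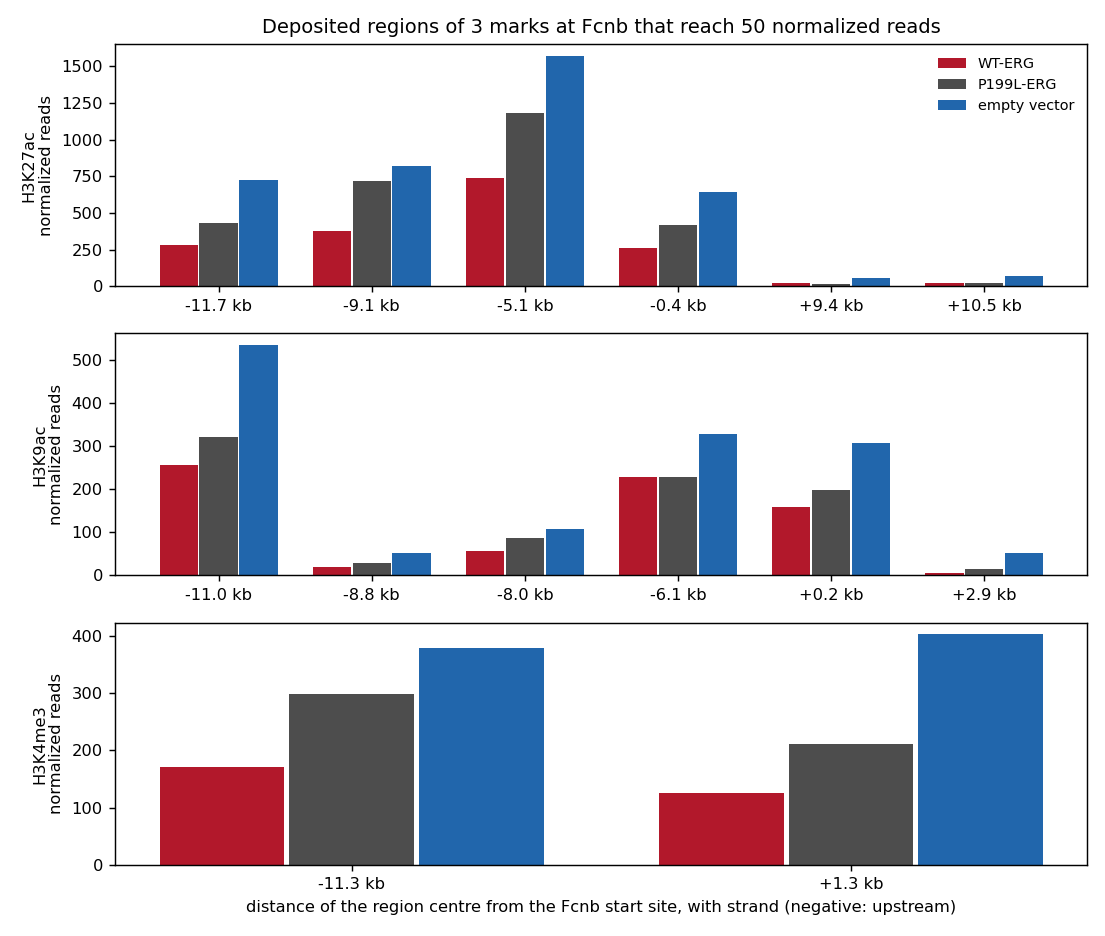
Normalized reads of H3K27ac, H3K9ac and H3K4me3 (bars start at 0) in each deposited region at Fcnb that reaches 50 normalized reads in a line, placed by distance from the Fcnb start site. The H3K27ac region 5.1 kb upstream has 742 normalized reads in WT-ERG, 1185 in P199L-ERG and 1574 in empty vector, and the H3K4me3 region at the gene has 126, 211 and 404.

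Members at other granulocyte and monocyte genes were single regions or small groups. Of 27 late neutrophil genes with an eligible region, 7 had a member (25.9%), and of 25 monocyte genes 5 did, against 9.35% of all 13534 genes with an eligible region. Counted by region, which allows for genes with many regions, members made up 4.62% of the eligible regions of late neutrophil genes, 5.36% for monocyte genes and 4.55% for primary granule genes, against 2.95% over all genes. At the 2.95% of all genes these lists would hold 5.10, 4.95 and 3.24 members, against 8, 9 and 5 found. Endothelial genes stood at 5.19% (4 of 77) and housekeeping genes at 1.12% (1 of 89). These counts were not tested. The GC-adjusted rule left members at 2 of 27 late neutrophil genes (7.41%), 3 of 25 monocyte genes and 1 of 13 primary granule genes, against 362 of all 13534 genes (2.67%). Few members stand behind these shares. The primary granule share came from 5 members at 2 of 13 genes, and 4 of the 5 lay at Fcnb. Between Ly6c2 and Ly6g, which encode surface antigens of monocytes and neutrophils, a member 22430 bp from the Ly6c2 start site had 167 normalized reads of H3K27ac in WT-ERG, 294 in P199L-ERG and 316 in empty vector. Its H3K9ac partner had 220, 294 and 486, and its H3K4me3 regions 245, 432 and 719, so WT-ERG was lowest in 3 marks. The Ly6 genes are near-identical copies, and how the unique alignment shared reads among them was not tested. A member 3.72 kb upstream of Chil3, a chitinase-like gene of neutrophils and macrophages, had 131 in WT-ERG, 464 in P199L-ERG and 295 in empty vector, and its H3K9ac partner was low (21.0, 22.8 and 27.7).

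Clec12a, a gene for an inhibitory lectin receptor of myeloid cells, had 4 members among its 13 eligible regions. They summed to 354 normalized reads in WT-ERG, 860 in P199L-ERG and 625 in empty vector, and 2 of them remained under the GC-adjusted rule. At the Clec12a promoter member, H3K9ac was 142, 150 and 154 and H3K4me3 41.2, 46.5 and 45.8 in WT-ERG, P199L-ERG and empty vector, so these marks hardly differed there. Sort1, for the sorting receptor sortilin, had 4 members of 7 eligible regions with sums of 386, 745 and 792 in WT-ERG, P199L-ERG and empty vector, but 0 of the 4 met the GC-adjusted rule. Map6, for a microtubule-stabilizing protein, had 3 of 6 with sums of 268, 578 and 626 in the same order, and 2 of them met it. Chst13, for a carbohydrate sulfotransferase, had 1 of 3. This member had 282 normalized reads of H3K27ac in WT-ERG, 451 in P199L-ERG and 645 in empty vector, and its H3K9ac log2 ratio of WT-ERG was -0.63 over P199L-ERG and -1.27 over empty vector. Ngp and Lcn2, for secondary granule proteins, had 1 small member each, with 32.9, 62.2 and 83.9 normalized reads upstream of Ngp and 38.1, 62.2 and 64.3 upstream of Lcn2. The members do not stand for these genes as a whole: over all H3K27ac regions assigned to Lcn2 the sums were 2063 in WT-ERG, 1890 in P199L-ERG and 1725 in empty vector. Of 28 late neutrophil genes with an H3K27ac region, this sum was below empty vector in WT-ERG at 12 and above it at 16. Of 26 monocyte genes it was below at 20 and above at 6. Housekeeping genes were similar, with 10 of 14 below and 4 above, and the share over all genes was not taken. No member was assigned to Mpo, Camp, Cebpe, Csf1r, Irf8, Kit, Gata2, Fn1 or Socs3.

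Some stem cell and myeloid transcription factor genes also had members, at 10 of 222 eligible regions of the stem and progenitor list (4.50%). For myeloid transcription factors it was 7 of 237 (2.95%), the same share as over all genes. Of the 7 heptad genes, the set of factors that share enhancers in blood stem cells, Fli1, Runx1 and Erg had 1 or more, or 6 of 129 eligible regions (4.65%). Fli1, itself an ETS factor, had 4 intronic members with sums of 271 in WT-ERG, 587 in P199L-ERG and 535 in empty vector. The member in an intron of the mouse's own Erg had 176, 408 and 322, and the Runx1 member, 29.7 kb inside the gene, had 169, 285 and 257. At the Erg member H3K4me1 was also lowest in WT-ERG, with 743 normalized reads, against 1194 in P199L-ERG and 1216 in empty vector. Of these 6 members 1, in Fli1, met the GC-adjusted rule. Myb, a progenitor transcription factor, had 4 members between 109 kb upstream and 17.7 kb downstream of its start site. The largest of them had 160 in WT-ERG, 534 in P199L-ERG and 292 in empty vector, but H3K9ac of 468, 540 and 512. Members made up 8.04% of the eligible regions of megakaryocyte genes (9 of 112), of which 4 lay at Fli1 and 3 at Thbs1. No member fell at erythroid, mast and basophil, T and NK or interferon genes, which had 23, 65, 38 and 51 eligible regions. At the 2.95% of all genes these lists would hold only 0.678 to 1.92 members each, so the zeros are near the background.

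**Figure D3:**
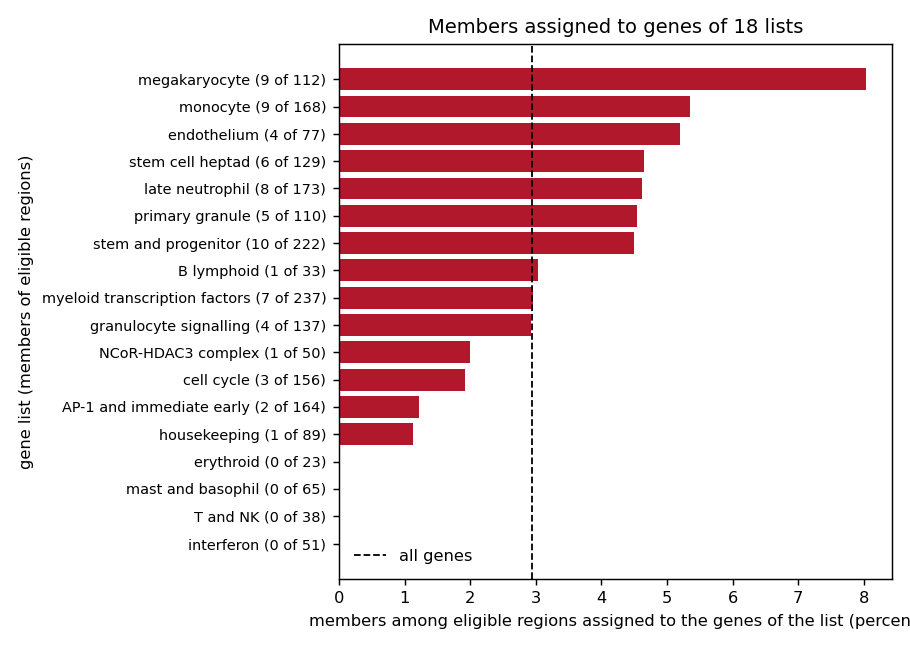
Members as a percentage of the eligible H3K27ac regions assigned to the genes of each of 18 lists, with the dashed line at 2.95% for all genes. Counts beside each name show how few members stand behind a bar, for example 9 of 112 for megakaryocyte genes; the shares were not tested.

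Among promoter members, Igll1, which encodes a pre-B cell receptor chain, was lowest in WT-ERG in H3K27ac, H3K9ac and H3K4me3, and it is named from the B lymphoid list. H3K27ac was 163 normalized reads in WT-ERG, 497 in P199L-ERG and 362 in empty vector. The H3K9ac partner had 701, 905 and 1209, and H3K4me3 374, 640 and 996. At Hsd11b1, which encodes a glucocorticoid-activating enzyme and has 2 members near its start site, the larger member had 236 in WT-ERG, 597 in P199L-ERG and 419 in empty vector. Its H3K9ac was 240, 294 and 350, and its H3K4me3 222, 367 and 509. Gas7, for a cytoskeletal protein, had 3 members around its start site among its 9 eligible regions. All 3 met the rule with and without GC adjustment. The largest Gas7 member had 182, 419 and 361 normalized reads of H3K27ac. At Acpp, an acid phosphatase gene, the promoter member had 21.6 in WT-ERG, 34.5 in P199L-ERG and 103 in empty vector, with H3K4me3 of 44.2, 93.9 and 221. The histone genes Hist1h3g and Hist1h2af shared a promoter member with 902, 1354 and 1381, at the edge of the threshold, and H3K4me3 there was 1771, 1998 and 1684. Near-identical histone copies can share reads.

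Members tended to lie away from promoters, as did the 995 regions with H3K27ac lowest in WT-ERG but no overlapping H3K9ac region that followed. Of the 902 members 92 reached within 1 kb of an annotated start site, against 34.4% of eligible regions. In introns lay 48.2% of members and 37.2% of eligible regions, and between genes 38.4% and 24.7%. The median distance to the nearest start site was 15832.5 bp for members and 6140 bp for eligible regions, and the median length was 804.5 and 1063 bp. Enhancer-like regions, which overlap an H3K4me1 but no H3K4me3 region, numbered 307 of the 902 members (exact binomial 95% interval of the share 30.9% to 37.2%), against 20.2% of eligible regions and 23.6% of the class with both marks highest in WT-ERG. The 995 regions without the H3K9ac condition were close to the members, with 11.6% within 1 kb of a start site, 53.1% in introns, 32.6% between genes, 31.8% enhancer-like and a median distance of 15320 bp. Of the 902 members 0 overlapped an H3K27me3 region, which allows a share of up to 0.333%, against 713 eligible regions (2.14%) and 72 of the 594 regions with both marks highest in WT-ERG. Of the 995 regions it was also 0 (up to 0.302%). The binomial interval and the upper limits given for zeros take regions as independent, though neighbouring members can overlap the same region of a mark. The H3K27me3 libraries were shallow, with 768125 to 980145 reads in 14721 regions.

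With a gap of up to 50 kb, 307 of the 902 members (34.04%) fell into clusters of 2 or more and 595 stood alone. The share was 30.2% of the 995 regions without the H3K9ac condition and 38.4% of the 594 with both marks highest in WT-ERG, so it was not particular to the members. There were 33 clusters of 3 or more. The largest, between Sc5d and Tecta, held 6 members in 49149 bases and no other eligible region, with sums of 279 normalized reads of H3K27ac in WT-ERG, 662 in P199L-ERG and 658 in empty vector. Sc5d encodes an enzyme of cholesterol synthesis. In an intron of Rcbtb2, upstream of the receptor gene Lpar6, lay 4 members, with sums of 655, 1278 and 1257. They were 4 of the 18 eligible regions assigned to Rcbtb2. The Lpar6 promoter was a further member with 237, 509 and 396. The most members of any gene were 6, at Sc5d (of 14 eligible regions) and at the neighbours Chd7 and Clvs1 (of 52 and 47), whose 6 members are the same regions, since the annotation can give a region to both flanking genes. Lpar6 had 5 of 12. Neighbouring regions share libraries and broad signal and are not independent.

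The other marks were not used by the rule. H3K4me3 was lower in WT-ERG at many of the members that carry it. Of the 713 H3K4me3 regions that overlapped members, 161 (22.6%) were lower in WT-ERG than in empty vector by 1.5-fold, against 6.65% of those overlapping eligible regions, and 45 were higher, or 6.31% against 9.03%. Against P199L-ERG 250 were lower (35.1%, background 14.6%) and 32 higher (4.49%, background 11.7%). Lower than both lines were 88 (12.3%, background 3.46%). Among the 324 H3K4me3 regions that reached 50 normalized reads, 34 were lower than both (10.5%, against 0.902% of eligible ones). The median log2 ratio of WT-ERG was -0.17 over empty vector and -0.39 over P199L-ERG, against -0.02 and 0.08 at eligible regions. The 95% order-statistic intervals of the member medians, which reflect the spread among regions only, were -0.20 to -0.14 and -0.43 to -0.32. Where H3K27ac was lowest in WT-ERG but H3K9ac was not, 10.5% of H3K4me3 regions were lower than in empty vector and 34.2% lower than in P199L-ERG. Where both acetylation marks were highest in WT-ERG, 0.828% were lower than in empty vector and 2.48% lower than in P199L-ERG.

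Over all members, the share of H3K4me1 regions lower in WT-ERG was near the background. Of 802 H3K4me1 regions at members, 66 (8.23%) were lower in WT-ERG than in empty vector by 1.5-fold and 102 (12.7%) higher, against backgrounds of 8.03% and 13.6%. Against P199L-ERG 40 were lower (4.99%, background 4.66%) and 58 higher (7.23%, background 16.3%), and lower than both lines were 23 (2.87%, background 2.82%). The share higher than P199L-ERG was thus under the background. The median log2 ratio was -0.01 over empty vector, with a 95% interval of -0.05 to 0.04, and -0.06 over P199L-ERG (-0.08 to -0.03), against -0.02 and 0.04 at eligible regions. Among enhancer-like members it was -0.07 over empty vector and -0.08 over P199L-ERG. At the regions that met the GC-adjusted rule described below, 49 of 276 H3K4me1 regions (17.8%) were lower than in empty vector, and after GC adjustment of H3K4me1 16.3%, against 7.70% at eligible regions. H3K4me1 regions were often far broader than the member inside them, as at Fcnb, so their values also cover sequence outside the member.

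Single members departed from this in both directions, among those whose H3K4me1 region reached 50 normalized reads. The largest falls of H3K4me1 included a region between Rbm28 and Lep, with 131 normalized reads in WT-ERG, 208 in P199L-ERG and 400 in empty vector, and the Acpp promoter with 110, 146 and 271. The largest gain was at Rtn4, a gene for an endoplasmic reticulum protein, with 254 in WT-ERG, 136 in P199L-ERG and 51.9 in empty vector, where H3K27ac was 11.3, 54.6 and 19.5. At Fnip1, whose product binds folliculin, H3K4me1 was 218, 58.7 and 60.9, and at Inhba, the activin A subunit gene, 99.2, 58.7 and 26.9. At these the methylation mark was highest in WT-ERG and the acetylation lowest. At Rtn4, though, the H3K27ac counts were only 11 in WT-ERG and 17 in empty vector. The counting interval of that ratio was 0.245 to 1.31. The Rtn4, Fnip1 and Inhba members did not meet the GC-adjusted rule. Their GC content was 42.5%, 41.6% and 40.1%. Across members, GC content and the H3K4me1 ratio over empty vector had a Spearman correlation of -0.45. Whether GC content accounts for these gains was not tested.

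**Figure D4:**
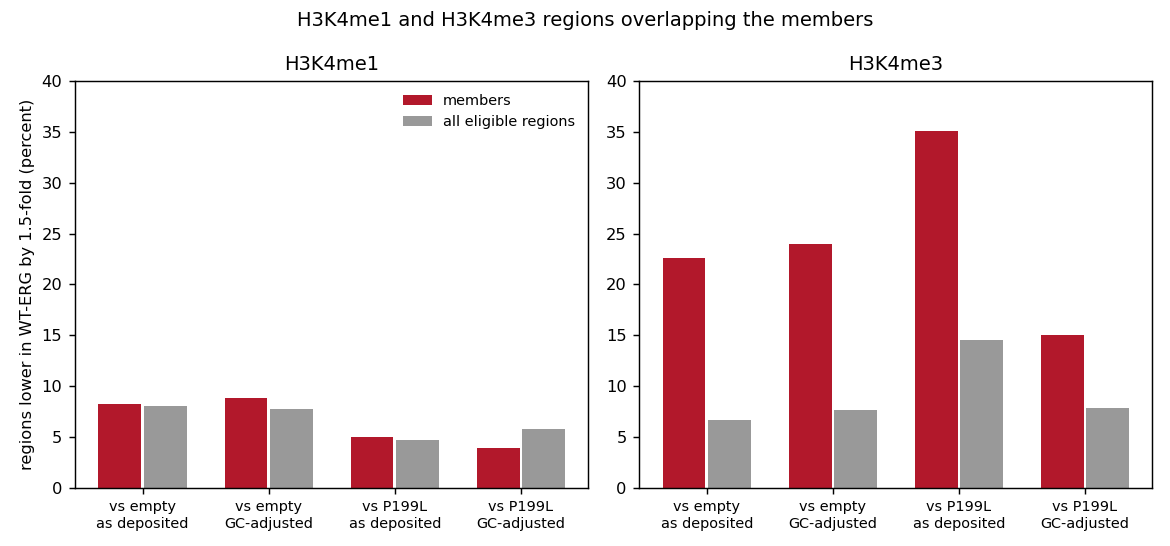
Percent of H3K4me1 (left) and H3K4me3 (right) regions lower in WT-ERG by 1.5-fold, among those overlapping members and those overlapping any eligible region, as deposited and after GC adjustment. For H3K4me3 the member bars stand above the background in all 4 comparisons (22.6% against 6.65% over empty vector as deposited), and for H3K4me1 they lie near it.

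GC content moved with membership. The median GC content was 45.6% in members, 51.1% in eligible regions and 56.9% where both marks were highest in WT-ERG. In 10 equal groups of eligible regions by GC content, members made up 289 of the lowest group (8.68%, median GC content 42.4%) and 0 of the highest (63.9%), a zero that allows a share of up to 0.0901%. Over the same groups, the median log2 ratio of H3K27ac in WT-ERG over P199L-ERG ran from -1.48 to 1.19, and that over empty vector was below 0 in all 10 groups, down to -0.26. Across members GC content and the H3K27ac ratio to P199L-ERG had a Spearman correlation of 0.48. Whether library preparation or cell state set this trend was not tested, and 1 library per line cannot tell them apart.

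With each library's values centred within groups of like GC content and signal, 297 regions met the rule, and 222 of them were among the 902 members (24.6%). The adjusted median log2 ratio at the members was -0.46 over P199L-ERG and -0.59 over empty vector, and 751 of the 902 still had H3K27ac lowest in WT-ERG. Without the P199L-ERG libraries, WT-ERG against empty vector alone gave 2299 regions. The adjusted H3K4me3 regions at members were lower in WT-ERG than in empty vector at 24.0%, against 7.64% of eligible ones, and lower than in P199L-ERG at 15.0%, against 7.87%. Lower than both after adjustment were 64 regions (8.98%, against 3.20%). The median H3K4me3 ratio over empty vector was -0.18 after adjustment, and that over P199L-ERG only -0.06.

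**Figure D5:**
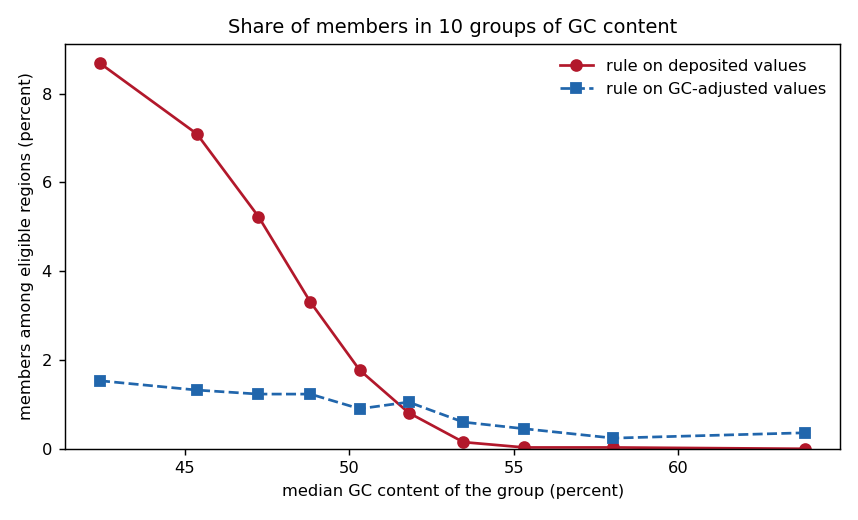
Members as a percentage of eligible H3K27ac regions in 10 groups of GC content, by the rule on deposited values and on GC-adjusted values. The deposited share runs from 8.68% at a median GC content of 42.4% to 0 at 63.9%, and the adjusted share from 1.53% to 0.361%.

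At the threshold the members grade into their neighbours. The members just inside it, in order, lay near Med31, Clec4a2 and Fli1. The Clec4a2 one had 68.9 normalized reads of H3K27ac in WT-ERG, 104 in P199L-ERG and 114 in empty vector. Just outside were regions near Stx11, Rnf125 and Dscaml1, and the Stx11 one had 54.5, 154 and 82.7. A further 995 regions had H3K27ac lowest in WT-ERG by the fold but no overlapping H3K9ac region that followed, as given above. These had a median GC content of 44.9%, close to that of the members.

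Reads in the deposited regions were 13980539 to 16230439 per H3K27ac library and 10268618 to 10992315 per H3K9ac library, and 14508786 to 22278560 for H3K4me1 and H3K4me3. As a check of the labelled cell type, H3K27ac regions assigned to Mpo, Cebpa and Spi1, genes of myeloid progenitors, summed to 9070, 16462 and 11112 normalized reads in WT-ERG. Hba-a1 had no region, but the primary granule genes Azu1, Rnase2a and Epx had none either. How the unique alignment affected Hba-a1 was not tested. The median over 16 erythroid genes, of which 9 had a region, was 74.1 in WT-ERG, against 1901 over 16 primary granule genes. The erythroid median was the lowest of the gene lists. That of late neutrophil genes was 767 and that of T and NK genes 531. Single erythroid genes were higher, with 3323 at Tfrc, 1075 at Car2 and 849 at Klf1. The contrast thus depends on the list chosen.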

How the data were processed

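ChIP-seq of 5 histone marks in 3 lines was analysed (15 of 16 samples); the IgG pool was not analysed here. According to the labels and the study's methods, the authors used cutadapt to trim reads, Bowtie to place them uniquely on mm10 and MACS2 to call peaks, and merged the peaks of the 3 lines within each mark. The tables deposited by the authors hold, per merged region and library, a read count, a normalized signal (normalized reads) and a call of 0 or 1. Normalized reads equal the count times 1 constant factor per library, are not divided by region length, and the factor's origin and the treatment of duplicates are not given in the sources used here. Genes and distances come from the deposited GREAT annotation.

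Starting from these, regions were overlapped by at least 1 base, and log2 ratios were taken on the log2(value + 2) scale. GC content came from RefSeq GRCm38; start sites, exons and introns came from GENCODE. For the GC adjustment, regions were sorted into 20 groups of GC content by 10 of signal, and the log2 deviation of each library from its region's mean was centred in each. The rule was tested on simulated data. With 1 library per line and mark, no test was run. Members, motifs and 18 gene lists were chosen with earlier results of these data known. Named regions were the 12 with the lowest H3K27ac and 8 with the lowest H3K9ac ratios (the larger of the 2 in each), the 6 largest in empty vector, the 10 genes with most members, up to 4 genes per list, 16 fixed genes, 3 regions on each side of the threshold, and the 5 largest H3K4me1 falls and gains where that mark reached 50; not all are printed, and 1 of the 12 is not reported here. The Gas7 and Hsd11b1 groups, the Clec4a2 neighbour and the Lpar6 promoter were added after their values were seen, as were the Fcnb regions past the start site. Alternatives covered the pseudocount, minimum, fold, scaling, GC content, overlap and libraries used. Python 3.11.15, pandas 2.3.3, NumPy 2.4.6 and SciPy 1.17.1 were used.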

Additional observations from a re-analysis of the deposited data

How the results depend on the processing

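The count of 902 members depended strongly on the settings. It was 531 and 1376 with a minimum of 100 and 25 normalized reads, 167 with a fold threshold of 0.5, 520 when the H3K9ac region had to cover 50% of the H3K27ac region, and 139 when a single overlapping H3K9ac region had to pass the fold threshold too. GC-adjusted values gave 297, of which 222 were members. Without the P199L-ERG libraries it was 2299, and with GC adjustment as well 1584; this last setting, and the H3K9ac minimum of 50 normalized reads (450), were chosen after seeing the data. A pseudocount of 0.5 or 10 and scaling to equal total reads gave 945, 672 and 635, within 1.5 times, but the last shared 505 regions with the 902.

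The median log2 ratio of H3K4me1 over empty vector was -0.11 after GC adjustment and -0.15 at members under the GC-adjusted rule; that over P199L-ERG was -0.13 with total-read scaling and -0.11 at members under the GC-adjusted rule. For H3K4me3 over empty vector it was -0.13 with a pseudocount of 10 and -0.25 at members under the GC-adjusted rule. For H3K4me3 over P199L-ERG it was -0.30 with a pseudocount of 10, -0.63 with total-read scaling, -0.062 after GC adjustment, and -0.32 both in regions that reach 50 and with an overlap of 50%. The H3K4me3 medians stayed below 0 in all 7 alternatives. The enhancer-like share was 59.2% when an overlapping mark had to cover 50% of the region (38.2% of eligible regions) and 29.6% with a minimum of 100. The cause of these shifts was not tested beyond what each setting changes by construction. No paired analysis was possible because each line and mark has 1 library. Depth limits the members with few reads: 371 of the 902 stayed under 100 normalized reads of H3K27ac in every line.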
